A study of Mus musculus with 24 samples.

Results

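Genes of cholesterol synthesis, uptake, efflux and esterification were examined in the livers of male mice that lack OGG1, the DNA glycosylase that removes oxidized guanine, and of wild-type (WT) controls. The set was a list of 33 genes written by role, and 31 of them were matched to a probe set among the 19938 genes that the arrays name singly. The sterol esterifying genes Soat1 and Soat2 were not matched. Where a gene had more than 1 probe set, the one with the highest mean over all 24 arrays was used. Of the 31 genes, 4 encode the sterol sensor and its transcription factor, 18 encode synthesis enzymes, 4 encode transfer and uptake proteins, 4 encode efflux transporters and 1, Lcat, encodes a plasma enzyme that esterifies cholesterol.

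The 24 livers fell into 4 groups of 6: WT mice on chow, Ogg1-/- mice on chow, WT mice on a high-fat diet (HFD), and Ogg1-/- mice on the HFD. The diets were given for 10 weeks, from 10 weeks of age according to the labels and from a later age according to the methods. The mice were males of the strain C57BL6 (C57BL/6J in the methods) that were housed one to a cage with free access to food. The deletion is in the whole body, not in hepatocytes alone. RNA of 1 liver was hybridised to 1 Affymetrix Mouse Gene ST array, and values are log2 signals per probe set, so that a difference of 1 is a 2-fold change.

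Hepatocytes make cholesterol from acetyl-CoA through the mevalonate pathway, which builds squalene, closes it into lanosterol and trims lanosterol to cholesterol. When sterols in the endoplasmic reticulum are low, SCAP escorts the transcription factor SREBP-2, the product of Srebf2, to the Golgi, where it is cut and released to switch on the genes of this pathway. When sterols are high, the INSIG proteins hold SCAP and SREBP-2 in place and the pathway genes fall together. The efflux transporters are governed the other way, by the liver X receptors (LXR), which oxidized sterols activate.

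SREBP-2 binds sterol response elements beside sites for the factors NF-Y and Sp1, so the promoters of the members were searched for the letters of such sites. Promoters from RefSeq (build GRCm38.p6, 250 bases before to 50 after the start of each gene) were given for 26 of the 33 members, among them 15 of the 18 synthesis enzymes. The NF-Y motif CCAAT stood, on either strand, in a promoter of all 15 of these enzymes and of 24 of the 26 members, against 41.1% of all 27025 genes in the table. The 2 members without it were Scap and Abca1. No entry was given for Fdps, Fdft1, Sqle, Stard4, Npc1, Abcg1 and Soat2. The Sp1 motif GGGCGG was found for 13 of the 15 enzymes and 20 of the 26 members, against 38.2% of all genes. The E-box CACGTG was found for 3 of the 15 enzymes and 6 of the 26 members, against 8.09% of all genes. The sterol response element TCACNCCAC was found for 1 enzyme, Hmgcs1, against 1.44% of all genes. No match overlapped another in the windows shown, each motif was searched on both strands, and a match is a description of the sequence, not a binding site.

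The 250 bases before the start are shown for Idi1, Cyp51, Hmgcs1 and Nsdhl, the 4 enzyme genes with an entry that differed most between the genotypes on the HFD, for Ebp, an enzyme gene that did not pass there, and for Abca1, an efflux gene without CCAAT. Capitals mark every match to the 4 motifs, read on the strand of the gene, with ATTGG and CCGCCC as the reverse complements of CCAAT and GGGCGG.
Hmgcs1, chr13:119690101-119690350, plus strand: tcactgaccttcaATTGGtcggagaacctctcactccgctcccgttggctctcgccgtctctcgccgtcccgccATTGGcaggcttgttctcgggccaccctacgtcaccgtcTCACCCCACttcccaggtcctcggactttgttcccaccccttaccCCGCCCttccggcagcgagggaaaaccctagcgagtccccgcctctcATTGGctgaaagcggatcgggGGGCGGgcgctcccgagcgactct
Idi1, chr13:8885356-8885605, plus strand: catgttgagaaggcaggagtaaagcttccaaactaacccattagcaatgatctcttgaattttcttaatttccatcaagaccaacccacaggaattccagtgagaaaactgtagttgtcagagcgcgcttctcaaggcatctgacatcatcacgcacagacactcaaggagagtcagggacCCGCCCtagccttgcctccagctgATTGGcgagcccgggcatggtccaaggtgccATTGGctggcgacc
Cyp51, chr5:4104698-4104947, minus strand: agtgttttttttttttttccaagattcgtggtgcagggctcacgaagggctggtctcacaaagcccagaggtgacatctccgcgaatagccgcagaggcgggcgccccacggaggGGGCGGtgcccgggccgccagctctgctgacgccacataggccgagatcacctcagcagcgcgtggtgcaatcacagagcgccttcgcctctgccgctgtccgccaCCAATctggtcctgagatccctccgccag
Nsdhl, chrX:72918271-72918520, plus strand: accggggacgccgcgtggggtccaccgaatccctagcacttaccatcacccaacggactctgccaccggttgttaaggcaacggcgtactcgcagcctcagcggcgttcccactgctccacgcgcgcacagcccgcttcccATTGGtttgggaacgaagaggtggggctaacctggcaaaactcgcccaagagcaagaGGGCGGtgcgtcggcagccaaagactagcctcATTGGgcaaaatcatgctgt
Ebp, chrX:8193513-8193762, minus strand: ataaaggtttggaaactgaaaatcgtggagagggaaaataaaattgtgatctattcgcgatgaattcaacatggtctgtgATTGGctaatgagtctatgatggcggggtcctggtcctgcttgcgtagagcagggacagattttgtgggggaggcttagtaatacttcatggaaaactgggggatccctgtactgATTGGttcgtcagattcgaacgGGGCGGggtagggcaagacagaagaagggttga
Abca1, chr4:53159896-53160145, minus strand: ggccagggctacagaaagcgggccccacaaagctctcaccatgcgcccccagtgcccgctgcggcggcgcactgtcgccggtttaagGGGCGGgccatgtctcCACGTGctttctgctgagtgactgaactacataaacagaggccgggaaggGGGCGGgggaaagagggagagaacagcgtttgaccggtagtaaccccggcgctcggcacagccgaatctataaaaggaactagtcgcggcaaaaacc
In the window of Hmgcs1 the sterol response element begins at position -137 from the start, with 2 Sp1 matches and an inverted CCAAT between it and the start. Idi1 and Nsdhl each have a pair of inverted CCAAT matches in the bases shown. Ebp has the same pair of inverted CCAAT matches, although it did not pass in any comparison, and Cyp51 has a single CCAAT.

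The arrays were checked before the members were compared. The level of Ogg1 was 6.47 ± 0.11 in WT and 5.93 ± 0.06 in Ogg1-/- chow livers, and 6.46 ± 0.08 and 5.87 ± 0.13 on the HFD (SD, n = 6), with no overlap on either diet (p = 0.00216 by exact two-sided permutation, the lowest value possible with these group sizes). Whether its probes fall inside the deleted part was not stated in the sources read. The 6 hepatocyte markers had mean levels from 13.3 to 14.2, against a median of 5.94 over all probe sets, and Adipoq, a marker of adipocytes, was at 4.30. No 2 arrays held identical values, and correlations between arrays ran from 0.952 to 0.993. The main axis of variation among the chow livers, the first principal component of their deviations from the group means, held 40.2% of that variance and set Ogg1-/- chow replicate 1 apart with a score of 80.9, against -46.1 to 7.74 for the other chow livers. On the HFD these scores did not overlap between the genotypes, at -20.7 to 10.4 in WT and 18.5 to 54.8 in Ogg1-/- livers. A suffix in the sample descriptions that all 6 WT chow livers and WT HFD replicate 5 carry has no stated meaning. Nothing states that the mice of a group came from separate litters or cages beyond their single housing, so the p-values measure the spread between these animals.

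The first comparison asked how the pathway differed between the genotypes on the HFD. Of the 31 members, 15 were lower in Ogg1-/- livers, 1 was higher and 15 did not pass (limma, adjusted p under 0.05 over all probe sets), whereas 11.8% of all genes were lower and 11.9% higher. With a change of at least 1.5-fold as well, 13 members were lower, against 5.37% of all genes. The median difference over the members was -0.60 on the log2 scale, against 0.03 over all genes. The synthesis enzymes made up most of these, with 12 of 18 lower, 0 higher and a median of -0.85. The groups did not overlap for 3 members that were lower (Idi1, Ggps1 and Stard4), against 7.99% of all genes, and for 2 that had higher values (Lcat and Abcg1), against 7.38%.

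**Figure D1:**
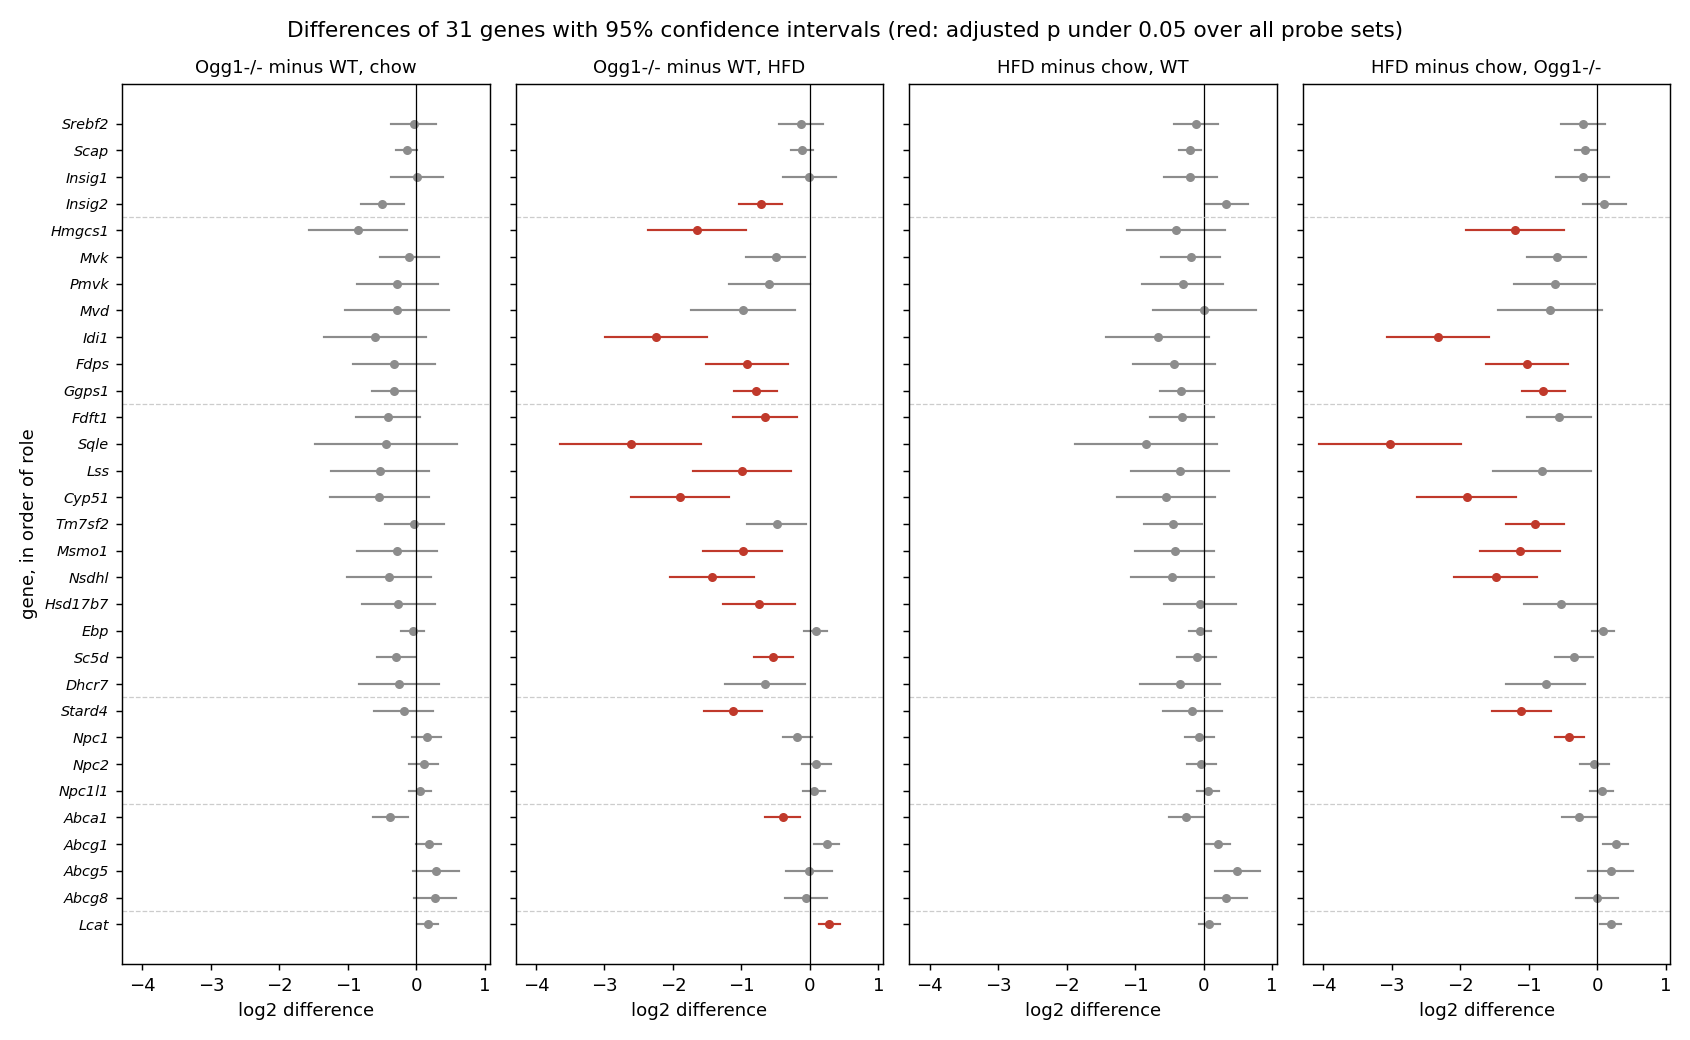
Log2 differences of the 31 measured genes in 4 comparisons, in order of role, with points for the estimates and lines for their 95% confidence intervals; red marks an adjusted p under 0.05. On the HFD, 15 genes lay lower and 1 higher in Ogg1-/- livers; between diets, 11 were lower in Ogg1-/- livers and 0 passed in WT livers; on chow, 0 passed.

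Sqle, squalene epoxidase, which opens the oxygen-dependent part of the pathway, had the largest difference of the 31. Its level in the 6 WT HFD livers was 10.86, 7.05, 7.71, 10.92, 9.16 and 10.79 in replicates 1 to 6. In the 6 Ogg1-/- HFD livers it was 5.98, 7.01, 7.19, 7.08, 6.27 and 7.24. The Ogg1-/- livers lay close together at the low end of these values, not far above the median of 5.94 over all probe sets. The WT livers fell into 3 near 11, 1 near 9, and replicates 2 and 3, of which replicate 2 lay inside the Ogg1-/- range. The difference was -2.62 (SE 0.50, adjusted p = 0.00233), a level 6.15-fold lower.

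Idi1, isopentenyl diphosphate isomerase, which makes the allylic building block of all isoprenoids, showed the same picture without overlap. Its level ran from 9.37 through a median of 11.14 to 11.997 in WT HFD livers and from 7.56 through 8.79 to 9.17 in Ogg1-/- HFD livers. The difference was -2.25 (SE 0.36, adjusted p = 0.000888), and a second Idi1 probe set differed by -2.18. Hmgcs1, the synthase that makes HMG-CoA at the entry of the pathway, ran from 10.05 through 11.96 to 12.64 in WT HFD livers and from 9.54 through 9.90 to 10.51 in Ogg1-/- HFD livers. Here the lowest WT livers, replicates 2 and 3, lay within the Ogg1-/- range, and the difference was -1.65 (SE 0.35, adjusted p = 0.00353).

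Of the other genes on the way to farnesyl and geranylgeranyl diphosphate, Fdps and Ggps1 were lower and Mvk, Pmvk and Mvd did not pass. Fdps, the synthase of farnesyl diphosphate, differed by -0.91 (SE 0.29, adjusted p = 0.0284). Ggps1, which makes geranylgeranyl diphosphate for protein prenylation and so leads away from cholesterol, differed by -0.79 (SE 0.15, adjusted p = 0.00238), and its groups did not overlap. The 2 kinases Mvk and Pmvk differed by -0.50 and -0.60 and the decarboxylase Mvd by -0.98, with adjusted p of 0.0930, 0.155 and 0.0614.

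From squalene synthase on to cholesterol, 8 of 11 genes were lower, Sqle among them. Cyp51, the demethylase of lanosterol, ran from 8.18 through 9.95 to 10.89 in WT HFD livers and from 7.09 through 7.97 to 8.22 in Ogg1-/- HFD livers, a difference of -1.90 (SE 0.35, adjusted p = 0.00195). Only WT replicate 2 lay inside the Ogg1-/- range. Nsdhl, which takes part in removing the methyl groups of the sterol ring, ran from 9.31 through 11.23 to 11.79 in WT and from 8.94 through 9.47 to 9.92 in Ogg1-/- HFD livers, a difference of -1.43 (SE 0.30, adjusted p = 0.00332), and WT replicate 2 was again the one that overlapped. Its partner Msmo1, the methyl sterol oxidase, ran from 10.47 through 11.77 to 12.54 in WT and from 10.04 through 10.78 to 11.13 in Ogg1-/- HFD livers, a difference of -0.98 (SE 0.28, adjusted p = 0.0167), with WT replicates 2 and 3 inside the Ogg1-/- range.

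Lss, lanosterol synthase, ran from 7.48 through 9.22 to 10.39 in WT HFD livers and from 7.68 through 8.18 to 8.29 in Ogg1-/- HFD livers, so that its lowest liver was a WT one. It differed by -0.99 (SE 0.35, adjusted p = 0.0456). Fdft1, squalene synthase, differed by -0.65 (adjusted p = 0.0443) and its second probe set by -0.73. Hsd17b7, a sterol ketoreductase, differed by -0.74 and Sc5d, the desaturase before the last steps, by -0.54, with adjusted p of 0.0431 and 0.00887. The reductases Tm7sf2 and Dhcr7 differed by -0.49 and -0.66 and did not pass (adjusted p = 0.0998 and 0.103). Ebp, the sterol isomerase whose promoter is shown above, differed by 0.08 (95% confidence interval -0.08 to 0.25, adjusted p = 0.540) and was the only enzyme gene with a positive difference.

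**Figure D2:**
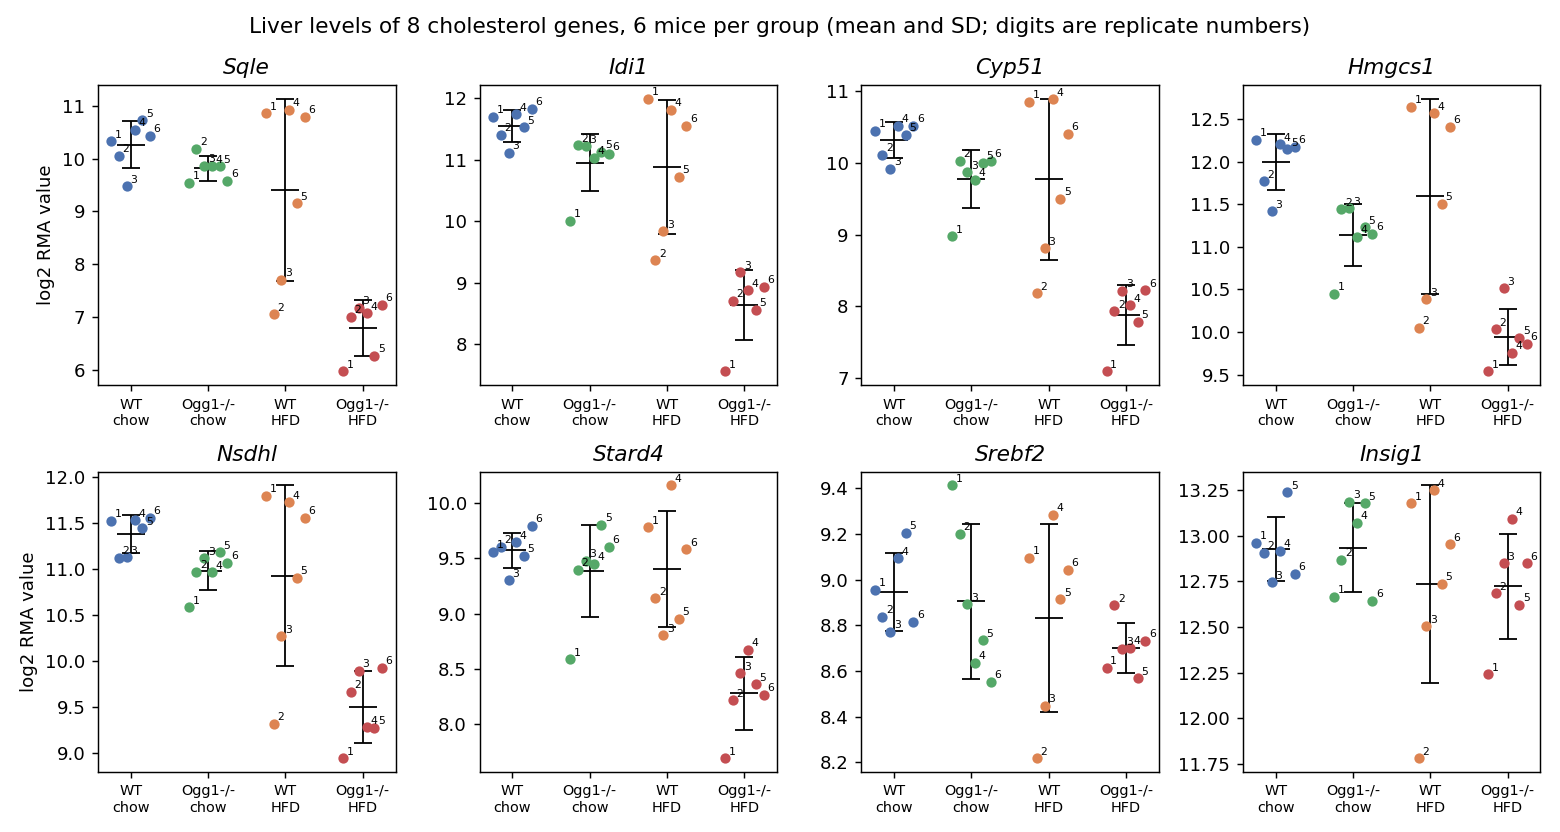
Log2 level of 8 genes in each of the 24 livers, with black bars for the mean and SD of each group of 6 and digits for the replicate number. The 6 Ogg1-/- HFD livers sat between 5.98 and 7.24 for Sqle, where the WT HFD livers spread from 7.05 to 10.92; Srebf2 and Insig1 overlapped throughout.

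Among the regulators, Insig2 was lower and the other 3 did not pass. Insig2, the INSIG isoform that the liver adjusts to feeding, ran from 11.68 through 12.22 to 12.50 in WT HFD livers and from 10.88 through 11.61 to 11.70 in Ogg1-/- HFD livers. Only WT replicate 2 reached into the Ogg1-/- range, and the difference was -0.72 (SE 0.15, adjusted p = 0.00358). Insig1, itself a target of SREBP-2, differed by -0.01 (95% confidence interval -0.40 to 0.37). Srebf2 differed by -0.13 (95% confidence interval -0.46 to 0.19) and Scap by -0.12 (95% confidence interval -0.27 to 0.04). None of these 3 intervals overlapped that of Sqle, the largest difference, which ran from -3.66 to -1.58. The interval of Srebf2 also lay apart from those of Hmgcs1, Idi1, Ggps1, Cyp51 and Nsdhl. It overlapped those of the other enzyme genes called lower: Fdps, Fdft1, Lss, Msmo1, Hsd17b7 and Sc5d. These unadjusted intervals rest on 1 error estimate over the 4 groups, although the WT HFD livers spread most. The SD of Sqle was 1.72 in WT HFD and 0.53 in Ogg1-/- HFD livers, against 0.44 in WT chow and 0.23 in Ogg1-/- chow livers. The chow groups thus narrowed the interval of Sqle, which understates the spread of the HFD livers. Whether Srebf2 differed less between the genotypes than an enzyme gene was not tested.

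Of the transfer and uptake genes, Stard4 was lower and Npc1, Npc2 and Npc1l1 did not pass. Stard4, a soluble carrier that moves cholesterol between membranes and is a known SREBP-2 target, ran from 8.81 through 9.36 to 10.16 in WT HFD livers and from 7.70 through 8.32 to 8.67 in Ogg1-/- HFD livers, without overlap. The difference was -1.12 (SE 0.21, adjusted p = 0.00198). Npc1 and Npc2, which release cholesterol from lysosomes, differed by -0.19 and 0.09. Npc1l1, the sterol uptake protein, differed by 0.06 at a mean level of 5.95 in WT HFD livers, close to the median over all probe sets.

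Of the 4 efflux genes 1, Abca1, was lower and 3 did not pass, and Lcat was higher. Abca1, which loads cholesterol onto nascent HDL, ran from 9.19 through 9.49 to 9.73 in WT HFD livers and from 8.77 through 9.14 to 9.29 in Ogg1-/- HFD livers, with a difference of -0.39 (SE 0.12, adjusted p = 0.0266). Abcg1, another LXR target, had higher values in every Ogg1-/- HFD liver (7.97 to 8.25) than in any WT HFD liver (7.74 to 7.97), but did not pass (difference 0.25, adjusted p = 0.0534). Abcg5 and Abcg8, which pair into the transporter that sends sterols into bile, differed by -0.01 (95% confidence interval -0.35 to 0.32) and -0.06 (95% confidence interval -0.36 to 0.25). Lcat ran from 12.91 to 13.07 in WT and from 13.20 to 13.34 in Ogg1-/- HFD livers and was the 1 member that rose, by 0.28 (SE 0.07, adjusted p = 0.0110).

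These calls were not equally firm. Without WT HFD replicate 1 or without Ogg1-/- HFD replicate 1, 10 members passed in place of 16, in each case 9 lower and 1 higher. With the axis score as a covariate 6 passed, all lower: Insig2, Idi1, Ggps1, Sqle, Cyp51 and Stard4, the members that also passed in every other setting tried. Under this covariate the difference of Ggps1 was -0.40, of Stard4 -0.71, of Sc5d -0.31, of Abca1 -0.13 and of Lcat 0.12, each more than 1.5 times smaller than without it. Hmgcs1 (-1.37), Nsdhl (-1.25) and Fdps (-0.95) lost their calls with differences close to those above. Hmgcs1 and Nsdhl passed in every setting but this covariate, and Sc5d and Lcat in every setting but this and the 1.5-fold minimum. Lss kept its call in 7 of 24 fits that each left out 1 array, Fdft1 in 8, Hsd17b7 in 14, Abca1 in 19, Fdps in 20 and Msmo1 in 22; all 6 lost it without WT HFD replicate 1 and without Ogg1-/- HFD replicate 1. Fdps, Fdft1, Lss, Msmo1 and Hsd17b7 also lost their calls when the HFD groups were fitted alone. They lost them by the methods' t-test too (adjusted p from 0.114 for Msmo1 to 0.188 for Fdft1), while Abca1 kept its call in both. Other measures moved with the genotype on the HFD as well. Of 8 sinusoidal endothelial markers, 7 were lower in Ogg1-/- HFD livers, and the log2 of their summed level ran from 12.27 to 12.53 in WT and from 11.80 to 12.09 in Ogg1-/- livers; the part of this in the results was not tested. Of the other marker lists, 1 of 6 hepatocyte, 2 of 7 stellate and 2 of 7 Kupffer cell markers were lower, 1 Kupffer cell marker was higher, and 0 of the 4 cholangiocyte, 3 adipocyte and 3 lymphocyte markers passed. Of 11 clock genes that run opposite to Arntl, 9 were higher in Ogg1-/- livers on the HFD and 9 on chow, and Arntl itself differed by -0.79 on the HFD and -1.56 on chow. Of 7 measured genes of fasting and feeding, Pdk4 and Cpt1a were lower (-0.94 and -0.40, adjusted p = 0.0493 and 0.0242) and Angptl4 was higher (0.64, adjusted p = 0.0356) on the HFD. The sources used here do not give the hour of collection, and the part of the clock and feeding genes in the results was not tested. In whole liver, fewer cells of a type and less RNA per cell cannot be told apart.

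The same comparison on chow gave 0 members past the threshold, against 0.341% of all genes higher and 0.276% lower. At an unadjusted p under 0.05 there were 6 of 31 members, against 21.1% of all genes. All 18 synthesis enzymes had a negative difference, with a median of -0.31 against 0.03 over all genes, and 0 members were without overlap, against 0.502% of all genes lower. The largest were Hmgcs1 at -0.85 (SE 0.35, adjusted p = 0.207), Idi1 at -0.60 (SE 0.36, adjusted p = 0.386) and Cyp51 at -0.54 (SE 0.35, adjusted p = 0.424), while Sqle differed by -0.44 (95% confidence interval -1.48 to 0.59). The member with the smallest p was Insig2, which ran from 11.67 through 11.75 to 12.17 in WT chow livers and from 11.11 through 11.30 to 11.71 in Ogg1-/- chow livers (difference -0.50, SE 0.15, adjusted p = 0.135). Ogg1-/- chow replicate 1 lay below the other 5 livers of its group for Idi1 (10.01 against 11.03 to 11.23), Hmgcs1 and Cyp51. Each gene had 1 error estimate over the 4 groups, so the wide WT HFD spread entered the chow comparison too. In the same way, the narrower chow spread entered the comparison on the HFD. For Sqle this made the error there smaller than the HFD groups alone would give. Its standard error and p-value on the HFD therefore understate the spread of the livers compared. The SD of Sqle was 0.44 in WT chow and 0.23 in Ogg1-/- chow livers, against 1.72 in WT HFD livers. With the compared groups fitted alone, 0 members passed on chow as well. On the HFD, Sqle, Hmgcs1 and Cyp51 kept their calls in such a fit, and Fdps, Fdft1, Lss, Msmo1 and Hsd17b7 lost theirs.

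The response to diet was then compared within each genotype. In WT livers 0 of 31 members passed, against 0.742% of all genes higher and 0.371% lower on the HFD, and 7 of 31 members had an unadjusted p under 0.05, against 13.5% of all genes. Sqle ran from 9.48 through 10.37 to 10.73 on chow, and on the HFD 3 livers lay above and 3 below that range. Its mean difference was -0.84 with a wide error (SE 0.50, 95% confidence interval -1.88 to 0.19, adjusted p = 0.476). The smallest p belonged to Abcg5, which ran from 10.35 through 10.48 to 10.78 on chow and from 10.66 through 11.01 to 11.29 on the HFD (difference 0.49, SE 0.16, adjusted p = 0.160).

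In Ogg1-/- livers 11 members were lower on the HFD and 0 were higher, against 5.87% and 5.59% of all genes. With a change of at least 1.5-fold there were 10, against 2.61%. The 11 were 9 synthesis enzymes (Hmgcs1, Idi1, Fdps, Ggps1, Sqle, Cyp51, Tm7sf2, Msmo1 and Nsdhl), Stard4 and Npc1. The groups did not overlap for 9 members, all with lower values on the HFD, against 0.873% of all genes. Of these, Lss and Pmvk had no overlap but did not pass (adjusted p = 0.142 and 0.174). The error estimate shared by the 4 groups includes the wide WT HFD spread, although no WT HFD liver is compared here. The SD of Lss was 0.28 in Ogg1-/- chow and 0.23 in Ogg1-/- HFD livers, against 1.16 in WT HFD livers. For Pmvk these were 0.42, 0.16 and 0.91. Whether this spread kept Lss and Pmvk from passing is not shown here.

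Sqle ran from 9.54 through 9.85 to 10.18 in Ogg1-/- chow livers and from 5.98 through 7.04 to 7.24 in Ogg1-/- HFD livers, so that more than 2 log2 units separated the groups. The difference was -3.02 (SE 0.50, adjusted p = 0.000918), a level 8.11-fold lower. Idi1 differed by -2.32 (SE 0.36, adjusted p = 0.000512), from a range of 10.01 to 11.23 on chow to 7.56 to 9.17 on the HFD. Cyp51 differed by -1.91 (SE 0.35, adjusted p = 0.00216), from 8.97 to 10.03 on chow to 7.09 to 8.22 on the HFD. Npc1, the membrane protein of the lysosomal exit, differed by -0.41 (SE 0.10, adjusted p = 0.0164), with ranges of 10.77 to 11.28 on chow and 10.41 to 11.02 on the HFD. The call of Npc1 was lost without Ogg1-/- HFD replicate 1, and Hmgcs1 and Fdps kept theirs in 15 and 18 of 24 fits that each left out 1 array. The comparisons on the HFD and within Ogg1-/- livers share the same 6 Ogg1-/- HFD livers, so their values are not independent of each other. Between the diets in Ogg1-/- livers, 6 of the 8 endothelial markers were lower and of the 11 clock genes 5 were higher and 3 lower, and their part in the results was not tested; on chow and between the diets in WT livers, 0 of the 8 endothelial markers passed.

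Whether the diet response differed between the genotypes was tested as an interaction. None of the 31 members passed in limma, against 0.00502% of all genes in either direction. At an unadjusted p under 0.05 there were 7 members, against 6.07% of all genes. The smallest p was that of Idi1, with an interaction of -1.65 (SE 0.51, adjusted p = 0.520). Sqle had the largest of the 31, -2.18 (SE 0.71, 95% confidence interval -3.64 to -0.71, adjusted p = 0.521). Stard4 had -0.94 (SE 0.29, adjusted p = 0.520) and passed without Ogg1-/- chow replicate 1, at -1.10 (SE 0.26, adjusted p = 0.0401). The interaction of Sqle was the most negative among all 19938 genes, but the diet responses of the genotypes were not shown to differ for any member with all arrays in the fit.

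**Figure D3:**
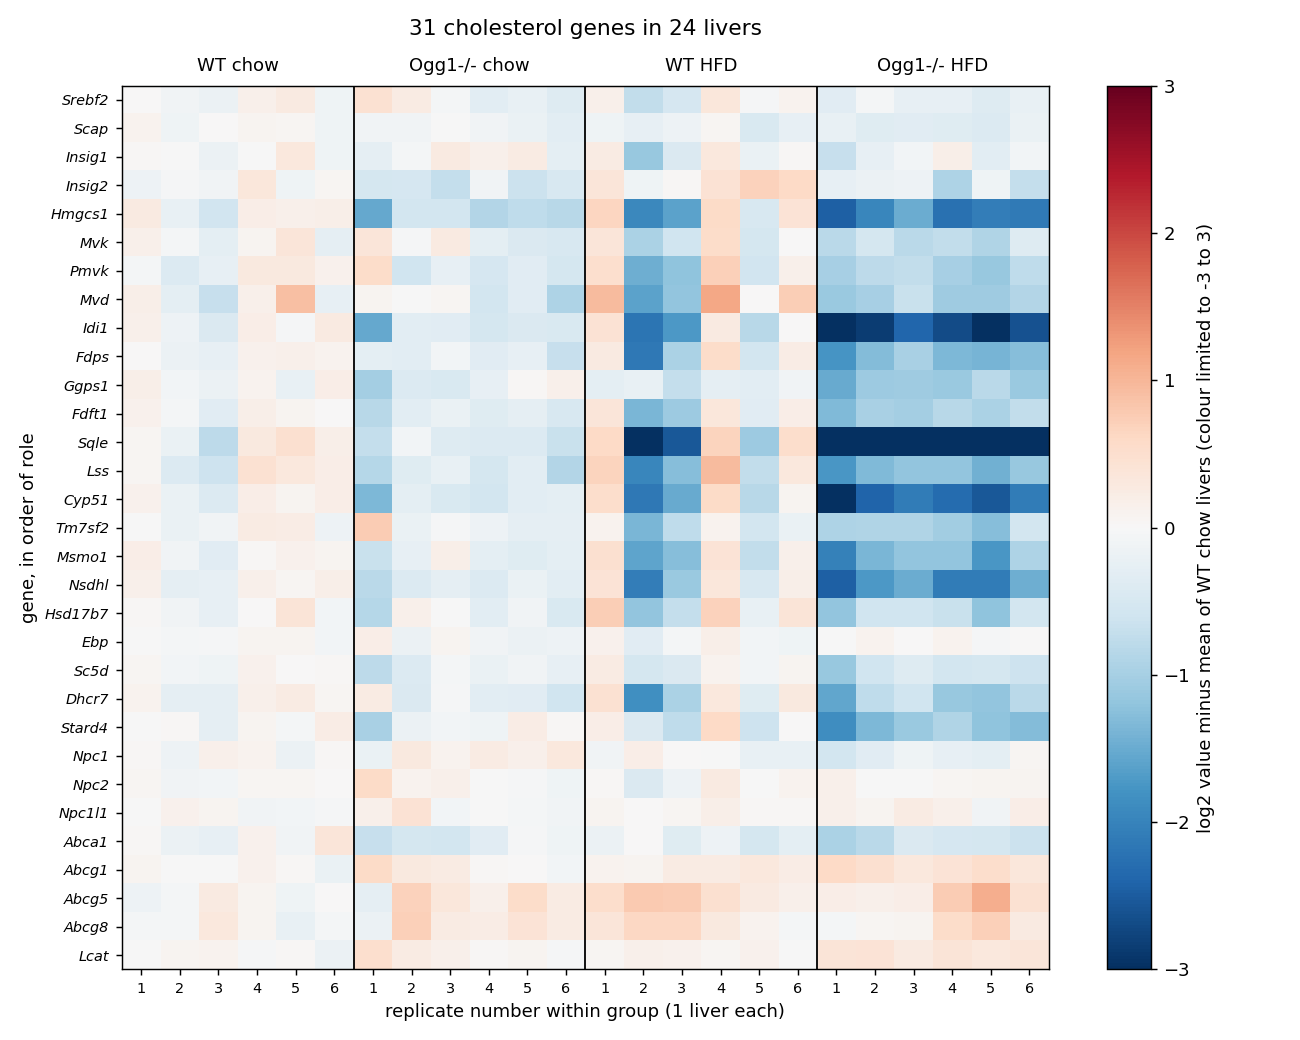
Level of each of the 31 genes (rows, in order of role) in each of the 24 livers (columns, grouped), as the log2 value minus the mean of the 6 WT chow livers, with colour limited to -3 to 3. All 6 Ogg1-/- HFD livers are low for most synthesis enzymes, WT HFD replicates 2 and 3 are low for the same rows, and WT HFD replicates 1, 4 and 6 are above the WT chow mean on average over the enzymes.

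In the synthesis enzymes, the WT HFD livers differed more among themselves than those of any other group. Over the 18 synthesis enzymes the median SD between livers was 0.91 in WT HFD livers, against 0.22 in WT chow, 0.33 in Ogg1-/- chow and 0.26 in Ogg1-/- HFD livers, while the median SD over all genes was 0.15 in WT HFD livers and largest, at 0.19, in Ogg1-/- chow livers. The WT HFD group had the largest SD of the 4 for 17 of the 18 enzymes. The same livers were responsible from gene to gene. WT HFD replicates 2 and 3 were the lowest pair for 16 of the 18 enzymes, and replicates 1 and 4 the highest pair for 17. The exception at the top was Ggps1, in which replicates 2 and 6 were the highest. Averaged over the enzymes, the deviation from the group mean was -1.21 in WT HFD replicate 2 and 0.80 in the highest WT HFD liver. In Ogg1-/- HFD livers it ran from -0.43, in replicate 1, to 0.24.

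How far the members moved together from liver to liver was measured on deviations from the group means, so that the differences between groups do not enter. These correlations over 24 livers are a description: the livers share 4 group means, and the WT HFD livers, with the widest spread, carry much of them. Over the 153 pairs of synthesis enzymes the median r was 0.81 (median rho 0.71), against 0.37 over all 465 pairs of members and 0.03 over pairs of all genes. Within single groups of 6 the median over enzyme pairs was 0.74 in WT chow, 0.32 in Ogg1-/- chow, 0.97 in WT HFD and 0.65 in Ogg1-/- HFD livers. Leaving out single livers gave medians from 0.75, without WT HFD replicate 2, to 0.89, without Ogg1-/- chow replicate 1.

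**Figure D4:**
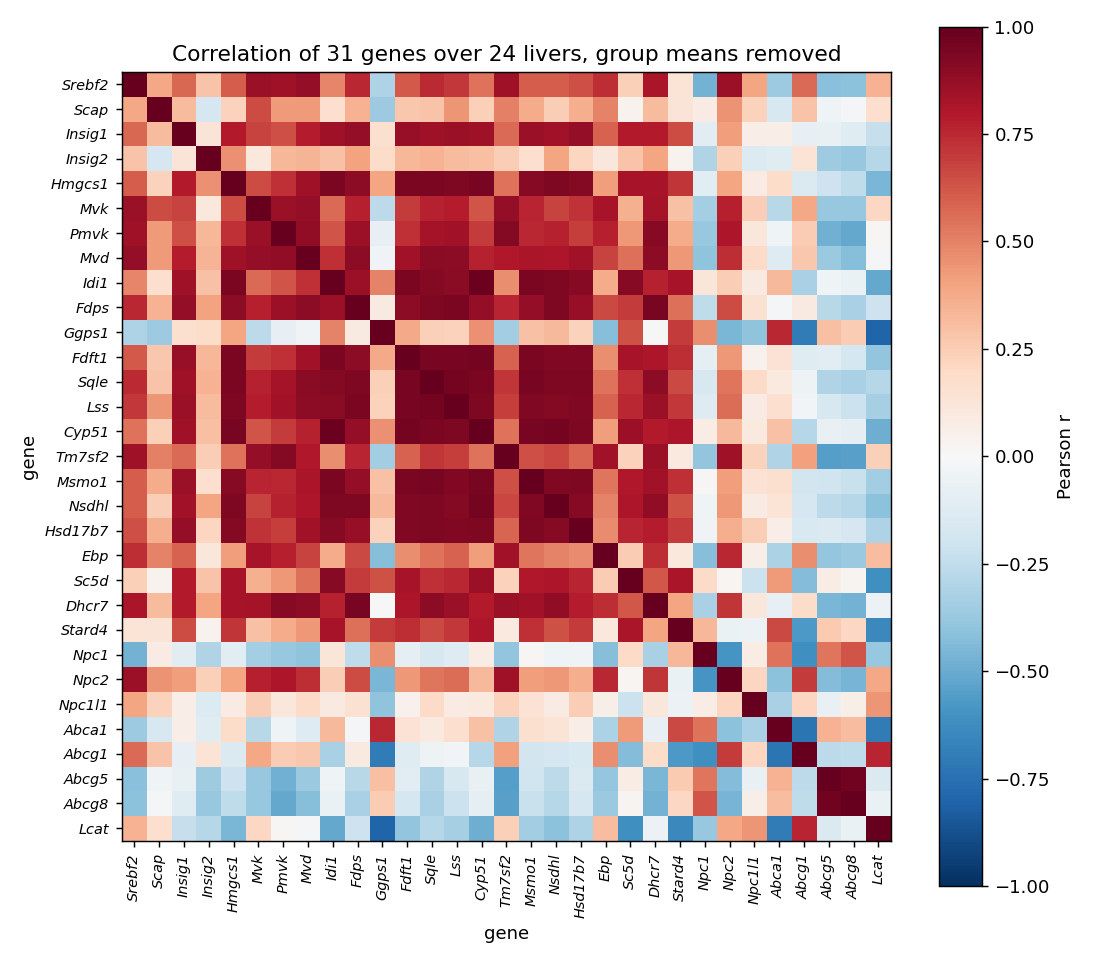
Pearson r between each pair of the 31 genes over 24 livers after removal of the group means, in order of role. The synthesis enzymes form a block with a median r of 0.81, Ggps1 and Ebp are paler within it, and the efflux genes and Lcat lie outside it.

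Against the mean of the enzymes, each enzyme being left out of the mean it was set against, Sqle had the highest Pearson r (r = 0.98, rho = 0.92), followed by Lss (r = 0.97, rho = 0.93) and Fdft1 (r = 0.96, rho = 0.82), while by Spearman's rho Msmo1 (0.93), Lss and Fdps (0.93) stood before Sqle. The weakest of the enzymes was Ggps1 (r = 0.21, rho = 0.16), the one on the branch to protein prenylation, and then Ebp (r = 0.59, rho = 0.43). Ggps1 was lower in Ogg1-/- HFD livers than in either WT HFD or Ogg1-/- chow livers, yet had this weak tie to the other enzymes within groups. Of the members outside the enzymes, Insig1 came closest (r = 0.87, rho = 0.77), then Srebf2 (r = 0.73, rho = 0.62) and Stard4 (r = 0.67, rho = 0.58). Insig1 had a positive r in each of the 4 groups, from 0.66 to 0.96, although it passed in no comparison. For Srebf2 the r was 0.81 in WT chow, -0.08 in Ogg1-/- chow, 0.98 in WT HFD and 0.57 in Ogg1-/- HFD livers. Insig2, which passed on the HFD, had r = 0.35. The efflux genes had values from -0.30 for Abcg8 to 0.10 for Abca1. Abcg5 and Abcg8, whose genes lie head to head, followed each other (r = 0.97).

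Relations with Sqle were tested by permuting livers within their groups, for 30 members and 14 other genes, with p-values adjusted over these 44. Sqle and Lss had r = 0.957 (permutation p = 1e-05, the smallest that 100000 permutations can give, adjusted p = 5.5e-05) and rho = 0.900 on ranks within groups (permutation p = 1e-05, adjusted p = 0.00022). Without the 2 livers farthest from the median of Sqle, WT HFD replicates 2 and 3, r was 0.896. Sqle and Srebf2 had r = 0.743 (permutation p = 0.0002, adjusted p = 0.00055) and rho = 0.614 (permutation p = 0.00465, adjusted p = 0.0157). Without those 2 livers r was 0.410, so its size depended in part on them. Within groups r was 0.787 in WT chow, 0.0919 in Ogg1-/- chow, 0.969 in WT HFD and 0.657 in Ogg1-/- HFD livers. Sqle and Insig1 had r = 0.848 (permutation p = 1e-05, adjusted p = 5.5e-05), rho = 0.757 (permutation p = 0.00018, adjusted p = 0.00132) and r = 0.707 without those livers. Sqle and Abcg5 had r = -0.299 (permutation p = 0.141, adjusted p = 0.187) and rho = 0 (permutation p = 1, adjusted p = 1), with 0.00896 without those livers. Within groups its r was -0.701 in WT chow, 0.823 in Ogg1-/- chow, -0.701 in WT HFD and -0.197 in Ogg1-/- HFD livers, so that the sign was not the same in all groups. Among the Ogg1-/- chow livers, replicate 1 was the lowest for both Sqle (9.54) and Abcg5 (10.25).

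**Figure D5:**
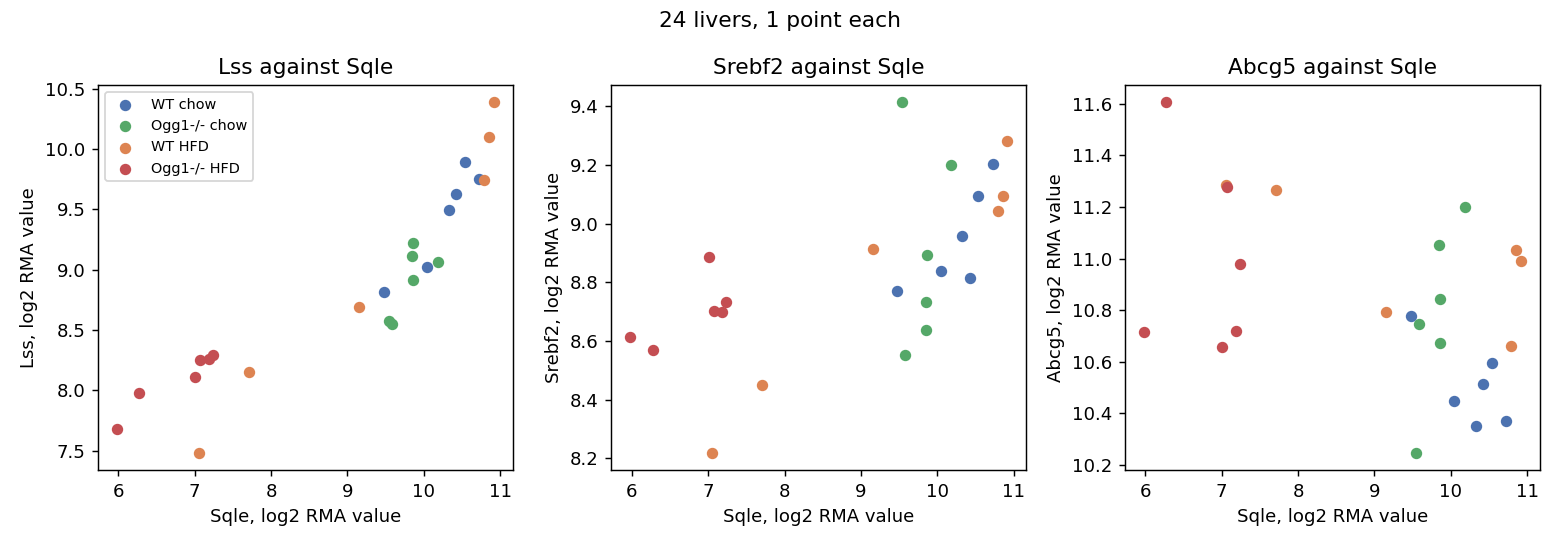
Levels of Lss, Srebf2 and Abcg5 against that of Sqle, in log2 values, with 1 point for each of the 24 livers and colours for the groups. Lss rises with Sqle across and within groups (r = 0.957 with group means removed), Srebf2 less so (r = 0.743, or 0.410 without WT HFD replicates 2 and 3), and Abcg5 has no common course over the groups (r = -0.299).

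Clock genes were among the 14. Sqle and Dbp, a clock output gene, had r = -0.516 (permutation p = 0.00614, adjusted p = 0.0126), which fell to -0.277 without WT HFD replicates 2 and 3, and rho = -0.257 (permutation p = 0.271, adjusted p = 0.397). Sqle and Arntl had r = 0.488 (permutation p = 0.0625, adjusted p = 0.0949), rho = 0.571 (permutation p = 0.00912, adjusted p = 0.0223) and r = 0.344 without those livers. For Per1, r was -0.53 (permutation p = 0.0291, adjusted p = 0.0474) and rho -0.343 (permutation p = 0.134, adjusted p = 0.236). For Ciart, r was -0.42 (permutation p = 0.0779, adjusted p = 0.114) and rho -0.1 (permutation p = 0.684, adjusted p = 0.817). None of these clock gene relations held on both measures. Of the 14 genes, only Acss2 and Acly did, with adjusted permutation p of 0.000499 and 0.000257 for r and 0.0166 and 0.0046 for rho.

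The genes outside the synthesis enzymes that followed their mean most closely over the 24 livers were named by rank. They were Rdh11, a retinol dehydrogenase (r = 0.97, rho = 0.92), Aldoc, an aldolase (r = 0.93, rho = 0.78), Acss2, which makes acetyl-CoA from acetate (r = 0.92, rho = 0.86), the desaturase Fads1 (r = 0.90, rho = 0.84), Scpep1 (r = 0.88, rho = 0.75), Acacb, an acetyl-CoA carboxylase (r = 0.88, rho = 0.75), the member Insig1, and Eepd1 (r = 0.87, rho = 0.72). Of 19920 genes outside the enzymes, 17 had an r over 0.8, which is 0.0853%. Rdh11, Aldoc and Acss2 were also lower in Ogg1-/- HFD livers, by -1.50 (SE 0.35, adjusted p = 0.00615), -0.93 (SE 0.28, adjusted p = 0.0203) and -1.09 (SE 0.32, adjusted p = 0.0194). Fads1, Scpep1, Acacb and Eepd1 did not pass.

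The lists of genes around the pathway are read against the same shares of all genes on the HFD, 11.8% lower and 11.9% higher. Of 10 measured SREBP targets outside the members, 2 were lower (Rdh11 and Acss2), 1 was higher and 7 did not pass, which is near those shares. The higher one was Srebf1, which encodes the sister factor SREBP-1 and is itself an LXR target; it differed by 0.92 (SE 0.18, adjusted p = 0.00256) on the HFD and by 1.29 (SE 0.18, adjusted p = 0.000206) between the diets in Ogg1-/- livers, opposite in sign to the enzymes of cholesterol synthesis. Of 6 LXR targets, Srebf1 and Lpcat3 (0.26, SE 0.08, adjusted p = 0.0331) were higher and 4 did not pass. Of 6 genes of bile acid and oxysterol synthesis, Cyp7b1, an oxysterol hydroxylase, was lower (-1.02, SE 0.35, adjusted p = 0.0395) and 5 did not pass. Of 14 other genes of sterol handling, 5 were lower and 2 higher. The largest among these were Osbpl1a (-0.68, adjusted p = 0.00531), Gramd1c, an endoplasmic reticulum protein that takes cholesterol from the plasma membrane (-0.58, adjusted p = 0.00290), the oxysterol binding protein Osbp (-0.58, adjusted p = 0.00681) and Erlin1 (-0.57, adjusted p = 0.0388). The 2 higher ones were the sterol carriers Stard3 and Stard5, at 0.42 and 0.50 (adjusted p = 0.0274 and 0.000481).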

How the data were processed

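Liver RNA of 24 mice was measured on Affymetrix Mouse Gene ST arrays, 1 array per mouse and 6 mice per group, grouped by the sample titles. Deposited were the authors' probe set summaries on the log2 scale (range 1.81 to 14.8), computed by RMA (robust multiarray averaging) per the labels; the counts in the study itself came from another normalization. The number of arrays limits the precision.

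All 35556 probe sets were fitted with limma 3.58.1 in R 4.3.3 (lmFit, contrasts.fit, eBayes), as 4 group means in 1 fit with no filter. P-values were adjusted by Benjamini-Hochberg over all probe sets, and a gene passed at an adjusted p under 0.05. Symbols came from the platform annotation: 21789 probe sets have 1 symbol, 1621 several and 12146 none, and 21698 were matched through Entrez identifiers to current symbols. No column was left out. Confidence intervals are unadjusted. Scripts were tested on simulated data, and figures were drawn with matplotlib 3.10.9.

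The members, lists and tests were chosen with earlier results of these data known. Every measured member is given by role. Group ranges, or values per liver for Sqle on the HFD, are given for the 8 members with the largest difference on the HFD among those that passed. The same holds for the 3 such in each other comparison, and the member with the smallest p where none passed. Outside the members, the 8 genes nearest to the mean of the enzymes and up to 4 passing genes of each context list are named.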

Additional observations from a re-analysis of the deposited data

Results flagged for a closer look

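In each group of 6 livers, the highest and the lowest value of each of the 31 genes was set against its nearest neighbour by Dixon's ratio. Of 124 groups, 9 had a value farther out than Dixon's 95% critical value, where chance gives about 1 in 20. Of these 9, 7 belonged to Ogg1-/- chow replicate 1, which also had the most extreme score on the main axis of variation. That liver was the lowest of its group for Idi1 (10.01, nearest other 11.03), Hmgcs1 (10.45, nearest other 11.11), Cyp51 (8.97, nearest other 9.77), Nsdhl (10.58, nearest other 10.96) and Stard4 (8.59, nearest other 9.40). It was the highest of its group for Pmvk (8.60, nearest other 7.82) and Tm7sf2 (12.05, nearest other 11.25), so genes of 1 pathway lay at opposite ends in the same liver. The other 2 were Ggps1 in WT HFD replicate 3, the lowest at 6.57 (nearest other 6.97), and Sc5d in Ogg1-/- HFD replicate 1, the lowest at 11.62 (nearest other 12.12). The cause was not tested.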

How the results depend on the processing

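Each comparison was repeated with the axis score as a covariate, a replicate block, array weights, a robust trended prior, quantile normalization or median centring, without dim probe sets, with the mean over a gene's probe sets, on the compared groups alone, by the methods' t-test, with a 1.5-fold minimum, and without each array in turn. Genotypes on the HFD: 16 members passed. By the methods' t-test 12 passed, not all of them among the 16, and Fdps, Fdft1, Lss, Msmo1 and Hsd17b7 lost their calls. With the axis covariate 6 passed, all 6 among the 16. Without single arrays 10 (WT HFD replicate 1, or Ogg1-/- HFD replicate 1) to 20 (WT HFD replicate 2) passed. Diets in Ogg1-/- livers: 11 passed, 8 with the axis covariate, and 8 to 15 without single arrays. Genotypes on chow and diets in WT livers: 0 under every alternative. Interaction: 0 to 1 without single arrays (Stard4, without Ogg1-/- chow replicate 1) and 0 otherwise. Same-numbered replicates of different groups did not deviate together (correlations of -0.27 to 0.43, median -0.03), so the numbers do not pair the livers; with the replicate block, 15 members passed on the HFD, with Hsd17b7 lost, and 11 between the diets in Ogg1-/- livers. Of 19 named differences under 34 alternatives, 0 changed sign and 77 of 646 values fell short of the threshold, 54 of them without a single array; 9 differences never did. The median r of enzyme pairs was 0.75 to 0.89 without single livers and 0.32 within Ogg1-/- chow livers, against 0.81. The cause of these shifts was not tested. The WT HFD spread limits what 6 livers per group can show, and a member that did not pass may still differ.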
